A study of Mus musculus with 24 samples.

Results

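The aortas of 8 male mice were compared, 4 homozygous for a recessive Klotho mutation (Kl/Kl) and 4 controls heterozygous for it (+/Kl), out of 24 aortas in the series. All 8 animals were homozygous for the mutated Bmp2 allele ∆UCS. Bmp2 RNA was still read in all 8 libraries, at 112 to 399 reads. Mice labelled Bmp2+/+ are called mice with intact Bmp2 below. The 8 libraries were chosen by these labels and by no measured value. Both mutations had been bred onto the inbred strain 129S1/SvlmJ, and matings between heterozygotes gave both groups. The controls were 48, 45, 45 and 47 days old and had healthy renal function, and the Kl/Kl mice were 47, 48, 45 and 47 days old and had renal disease. All cages had moistened chow on the floor, because Kl/Kl mice are smaller and weaker. The other 16 libraries came from mice with intact Bmp2, 4 control and 4 Kl/Kl animals of each sex. One control male among them was +/+ for Klotho.

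Klotho is a membrane protein of the kidney tubule that serves as co-receptor for FGF23, the bone hormone that makes the kidney excrete phosphate. Mice without it keep phosphate, age early and calcify their arteries. Bmp2 is a secreted growth factor that drives bone formation, and it is studied in arteries because calcified vessels turn on genes of bone. Macrophages gather around mineral and lipid, where they can take up a state marked by Trem2, Gpnmb and osteopontin (Spp1), and fused macrophages form the osteoclasts that resorb bone. The wall and its surrounding fat hold further cell types, and every library is a sum over all of them.

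Values are the authors' deposited TPM, a transcript abundance per library total, rescaled here by median-of-ratios size factors of 0.756 to 1.36 in these 8 libraries. They compare a gene between libraries and not genes with each other, because lengths included introns. Estimated depth was 34703000 to 50807000 reads in genes. Mitochondrially encoded genes took 53.5% to 61.2% of the deposited total in controls and 40.9% to 52.5% in Kl/Kl libraries. Smooth muscle markers of the aorta were present in every library, with Acta2 between 31.5 and 253 rescaled TPM. The first principal component (47.7% of the variance) did not separate the groups, with Kl/Kl replicate 4 on the side of the controls and control replicate 4 toward the Kl/Kl side. On the second (21.6% of the variance) Kl/Kl replicate 4 stood apart from the other 7 libraries. The labels name the samples as replicates with their own ages and do not state litters, so p-values measure the spread between these samples.

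Of the mutated genes themselves, Kl is almost silent in aorta. Kl (ENSMUSG00000058488, mm39 chr5:150876072-150917282) gave 0.00908, 0.00701, 0.0178 and 0.0107 rescaled TPM in the controls and 0.000605, 0.00311, 0.00395 and 0.00941 in Kl/Kl, from 1 to 30 reads. The groups overlapped (0.0111 ± 0.00467 against 0.00427 ± 0.00371, SD, n = 4 each, exact permutation test p = 0.0857, two-sided), so Kl itself does not check the labels here. Bmp2 (ENSMUSG00000027358, mm39 chr2:133394079-133404805) was measured at 0.244, 0.361, 0.316 and 0.446 in controls and 0.281, 0.954, 0.381 and 0.354 in Kl/Kl. Apart from Kl/Kl replicate 2, the values of both groups lay in 1 range (0.342 ± 0.0844 against 0.493 ± 0.311, SD, n = 4 each, exact permutation p = 0.543).

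In the ∆UCS males, 68 of 7767 tested genes were higher in Kl/Kl (0.875%) and 105 were lower (1.35%), together 2.23% (limma on log2(rescaled TPM + 1), adjusted p under 0.05). A gene entered the test with a rescaled TPM of at least 1 in at least 4 of the 8 libraries. The genes that rose included many of macrophages, and those that fell included genes of fat synthesis, fatty acid oxidation and the citric acid cycle. All 173 had no overlap between the groups, against 7.35% of tested genes without overlap and higher in Kl/Kl, and 6.76% lower. Of the 68, 23 reached 1 TPM in no control library, and of the 105, 12 did so in no Kl/Kl library, so these had to differ to enter the test. On the deposited values without rescaling, which moved the median change of all genes from 0.04 to 0.25, the split was 47 higher and 10 lower. With scaling by the 75th percentile it was 64 and 160.

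These counts rest on few libraries. Leaving out Kl/Kl replicate 4 raised them to 319 higher and 432 lower. Without Kl/Kl replicate 1 they fell to 2 and 2, and without Kl/Kl replicate 3 to 4 and 3. Without control replicates 1, 2 or 3 there were 13, 9 or 9 higher genes and 3 lower ones each time, without control replicate 4 there were 79 and 38, and without Kl/Kl replicate 2 there were 42 and 84. In every one of these fits the called genes that could still be tested, 150 or 161 of 173, kept their sign. Without overlap between the groups, leaving out 1 library could not reverse a sign, so this outcome was fixed in advance. Cd68, Lgals3 and P2rx5 stayed past the threshold in all 8 of them.

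On this scale the highest rise was that of Spp1 (ENSMUSG00000029304, mm39 chr5:104582984-104588916), which encodes osteopontin, a phosphoprotein that binds mineral and is made by macrophages and bone cells. Spp1 was measured at 0.611, 0.503, 0.452 and 0.576 rescaled TPM in the controls and at 53.0, 89.6, 151 and 42.2 in Kl/Kl. Every Kl/Kl aorta was far above every control, a ratio of means of 157 (log2 change 5.62, SE 0.36, adjusted p = 0.000426). Mmp12, the macrophage elastase that cuts elastic fibres, was at 0.105, 0.0326, 0.0146 and 0.0312 in controls and at 5.98, 8.40, 9.48 and 4.15 in Kl/Kl (log2 change 2.88, SE 0.21, adjusted p = 0.000755). Its control values stood for as few as 15 reads, and the log2 change on this scale understates the ratio of means of 153. With voom, the limma method that weights each value by its read count, Mmp12 rose more than Spp1 (7.47 against 7.03).

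The promoters of these genes are shown because several hold the same short word, the site GAGGAAGT bound by PU.1, the transcription factor that myeloid cells depend on. The windows come from RefSeq (GRCm38.p6), each written along the gene with the match in capitals.
Spp1, chr5:104434968-104435035, plus strand: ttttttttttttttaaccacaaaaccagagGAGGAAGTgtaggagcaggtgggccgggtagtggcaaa
Mmp12, chr9:7344279-7344346, plus strand: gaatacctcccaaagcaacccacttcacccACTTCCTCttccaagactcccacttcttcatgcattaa
C1qc, chr4:136893072-136893139, minus strand: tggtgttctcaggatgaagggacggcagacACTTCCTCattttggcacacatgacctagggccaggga
In Spp1 the word stands in the gene's sense, and in Mmp12 and C1qc on the opposite strand. In the 250 bases before each start, searched on both strands, it occurred in 755 of 27025 genes (2.79%) and in 131 of 4920 tested genes (2.66%). Of the 68 genes called higher, 44 matched a window, and 4 of these held the word (9.09%), the fourth being Pirb. Of the 105 called lower, 67 matched and 1 held it (1.49%). Of the general macrophage markers, such as Cd68, 5 matched a window and 0 held it. These are counts of letters and were not tested.

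Most tested genes that mark macrophages in general rose. Of 8 tested macrophage markers, 6 were called higher and 0 lower, beside 0.875% of all tested genes, and their median log2 change was 1.77 beside 0.04 for all genes. Cd68, an endosomal glycoprotein of macrophages, was at 2.89, 3.34, 2.67 and 4.22 in controls and at 25.9, 26.0, 32.7 and 19.0 in Kl/Kl (log2 change 2.64, SE 0.19, adjusted p = 0.000755). Lyz2, the lysozyme of myeloid cells, was at 24.9, 57.2, 41.5 and 76.5 against 204, 183, 204 and 225 (log2 change 2.12, SE 0.32, adjusted p = 0.0253). For both genes the lowest Kl/Kl library was above the highest control. The others called were Cd14, a co-receptor for bacterial lipopolysaccharide, Fcgr3, Tyrobp and the protease Ctss. Fcgr3 reached 1 TPM in Kl/Kl libraries only, so it had to differ to enter the test. Among the 7 markers that reached 1 TPM in both groups, 5 were called higher.

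The 2 tested markers that did not pass differed in size. Mpeg1, which encodes a pore-forming protein of macrophages, had a log2 change of 2.40 (SE 0.52, adjusted p = 0.0535), with 35.0, 29.8, 37.2 and 8.08 in Kl/Kl against 1.99 to 7.31 in controls. Csf1r, the receptor for the growth factor that keeps macrophages alive, had 0.42 (SE 0.16, adjusted p = 0.186). Its values of 1.10 to 1.65 in controls and 1.29 to 2.44 in Kl/Kl overlapped. Adgre1, the gene of the F4/80 antigen, lay below the filter at 0.0910 ± 0.0219 in controls and 0.149 ± 0.0334 in Kl/Kl (SD, n = 4 each, exact permutation p = 0.0571). Summed over all 14 markers, the level was 40.4 to 103 in controls and 282 to 331 in Kl/Kl. Most of this sum was Lyz2 alone, with 24.9 to 76.5 in controls and 183 to 225 in Kl/Kl. Neutrophil markers, a class that shares myeloid genes such as Lyz2 and Tyrobp with macrophages, were also higher in sum, at 1.95 to 9.94 in controls and 12.7 to 58.3 in Kl/Kl. Of 4 tested neutrophil markers 0 were called (median 1.93), and their part in the rise of shared myeloid genes was not tested. In bulk tissue more cells of a type and more RNA per cell cannot be told apart, here and below.

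Genes of the Trem2-dependent, lipid-handling macrophage state split in their response. Of 13 tested, 5 were called higher, beside 0.875% of all tested genes, namely Spp1, Mmp12, Gpnmb, Trem2 and Lgals3. Of these, 4 passed the filter through the Kl/Kl libraries alone, so they had to differ. Trem2, a lipid receptor of macrophages, was at 0.350, 0.249, 0.504 and 0.291 in controls and at 2.06, 2.51, 2.70 and 2.32 in Kl/Kl (log2 change 1.33, SE 0.11, adjusted p = 0.00108). Gpnmb, a glycoprotein of stressed lysosomes, was at 0.164, 0.150, 0.138 and 0.189 against 5.75, 11.2, 10.5 and 2.56 (log2 change 2.72, SE 0.36, adjusted p = 0.0179). Lgals3, which encodes galectin-3, was at 0.390, 0.655, 0.563 and 1.36 against 7.13, 8.99, 10.7 and 7.19 (log2 change 2.46, SE 0.20, adjusted p = 0.00108). The lipid genes of the same list did not pass. Fabp5 had a log2 change of 1.64 (adjusted p = 0.0527) and Apoe, a lipid carrier, 1.08 (adjusted p = 0.0973). Lpl, lipoprotein lipase, had −0.05 (adjusted p = 0.963), and Plin2, a coat protein of lipid droplets, −1.01 (adjusted p = 0.230). The 9 members that also reached the filter level in controls had a median of 0.62.

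**Figure D1:**
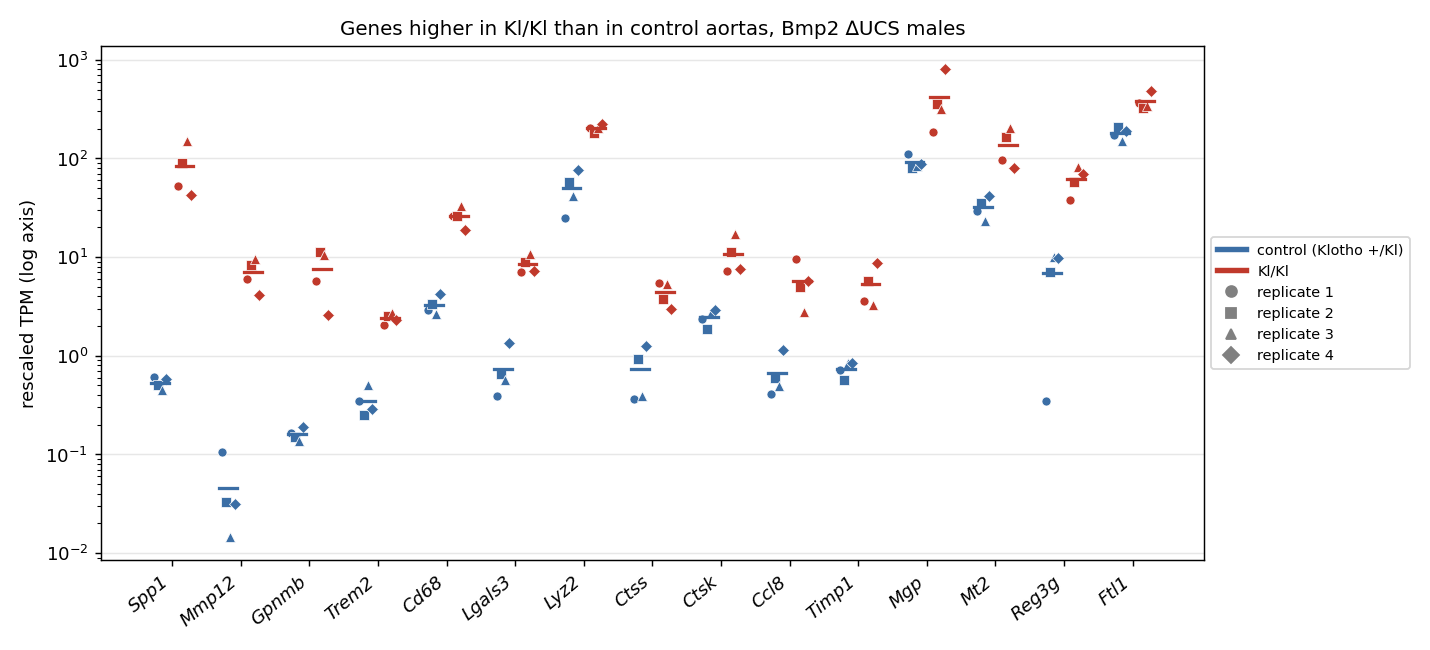
Rescaled TPM (log axis) of 15 genes called higher, in the 4 control (blue) and 4 Kl/Kl aortas (red) of ∆UCS males; symbols mark the replicate and bars the mean of each group. In all 15 genes the red points lie above the blue ones, with the widest gaps for Spp1 and Mmp12.

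Receptors and secreted factors of myeloid cells rose in part. All 4 tested Fc receptor genes and adaptors (Fcer1g, Fcgr2b, Fcgr3, Tyrobp) were called higher, beside 0.875% of all tested genes. Of them 2, Fcgr2b and Fcgr3, reached 1 TPM in Kl/Kl libraries only, so they had to differ. Fcer1g, the signalling chain that Fc receptors share, was at 1.02, 1.29, 1.08 and 1.43 in controls and at 4.88, 3.57, 4.55 and 6.91 in Kl/Kl (log2 change 1.41, SE 0.17, adjusted p = 0.0118). The inhibitory receptor genes Lilrb4a (1.85) and Lilr4b (1.97) are close copies of each other, so reads may have been shared between them. Rgs1, which dampens chemokine receptor signalling, had a log2 change of 1.86, with 0.0472 to 0.356 in controls and 1.69 to 4.72 in Kl/Kl. Lilr4b and Rgs1 also reached 1 TPM in Kl/Kl libraries only, so they too had to differ.

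Of 14 tested chemokines and receptors, 3 were called higher, the monocyte attractants Ccl2, Ccl8 and Ccl9, beside 0.875% of all tested genes. Ccl2 reached 1 TPM in Kl/Kl libraries only. Ccl8 was at 0.406, 0.596, 0.499 and 1.16 in controls and at 9.53, 5.0, 2.79 and 5.68 in Kl/Kl (log2 change 1.95, SE 0.29, adjusted p = 0.0253), the widest range within Kl/Kl of the 3. Of 13 complement genes, 4 were called higher, one of them (C3ar1) with no control at 1 TPM. They were the subunits C1qa, C1qb and C1qc of the first component and the receptor C3ar1. C1qc was at 6.91, 7.43, 7.56 and 10.4 against 24, 15.4, 15.4 and 22.4 (log2 change 1.15, SE 0.20, adjusted p = 0.0358). The other 9, among them C3 at −0.05, did not pass. Also called were 2 subunits of the NADPH oxidase, the enzyme by which phagocytes make superoxide, Ncf1 (1.44) and Cyba (1.07).

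Proteases and their inhibitors changed in part. Of 14 tested, 4 rose, Mmp12, the cysteine proteases Ctsk and Ctss, and Timp1, which inhibits matrix metalloproteinases, beside 0.875% of all tested genes. Mmp12 and Timp1 reached 1 TPM in Kl/Kl libraries only, so they had to differ. Ctsk, the collagen-cutting enzyme of osteoclasts, was at 2.34, 1.87, 2.72 and 2.89 in controls and at 7.27, 11.2, 17.3 and 7.52 in Kl/Kl (log2 change 1.71, SE 0.26, adjusted p = 0.0257). Timp1 was at 0.564 to 0.844 in controls and at 3.60, 5.74, 3.29 and 8.69 in Kl/Kl (log2 change 1.79, SE 0.25, adjusted p = 0.0220). The gelatinase Mmp2 (0.39, adjusted p = 0.408) and Timp3 (0.24, adjusted p = 0.711) did not pass. Among 28 tested lysosomal genes Ctsa, Ctss and Gusb were called higher (10.7%), beside 0.875% of all tested genes. The median of the list was 0.15.

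Some genes of mineralised tissue rose, and most of the others were near the limit of detection. Mgp, matrix Gla protein, an inhibitor of arterial calcification made by smooth muscle and chondrocytes, was at 111, 80.9, 83.7 and 88.3 in controls and at 188, 358, 319 and 801 in Kl/Kl (log2 change 1.99, SE 0.40, adjusted p = 0.0436). Kl/Kl replicate 4, with the highest value, is also the library that stood apart. Of 6 tested osteochondrogenic genes, 3 were called, Spp1, Ctsk and Bglap2, a copy of the osteocalcin gene, beside 0.875% of all tested genes. Spp1 and Bglap2 entered the test through the Kl/Kl libraries alone, and the other 4 had a median of 0.15 with 1 called. Bglap2 had 0.568 in control replicate 4 and almost no reads in the other controls, against 1.02, 1.13, 2.77 and 2.55 in Kl/Kl. Bglap2 lies beside near-identical copies, so its level is uncertain. Sox9, the regulator of cartilage, had 0.56 (adjusted p = 0.220).

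Bone matrix genes under the filter were tested one by one, where the smallest p that 4 against 4 can give is 0.0286. Dmp1, a phosphoprotein of osteocytes, gave 2, 7, 6 and 11 reads in controls and 50, 130, 1276 and 203 in Kl/Kl (exact permutation p = 0.0286). Ibsp, bone sialoprotein, gave 5, 8, 19 and 35 reads against 70, 228, 255 and 155 (exact permutation p = 0.0286). In both genes every Kl/Kl library was above every control, with Kl/Kl replicate 1 the lowest. Sp7, the osteoblast regulator osterix, gave 4 to 10 reads against 12 to 21 (exact permutation p = 0.0286). Runx2, which acts before Sp7, overlapped between the groups (0.00481 ± 0.00193 against 0.0125 ± 0.00586 rescaled TPM, SD, n = 4 each, exact permutation p = 0.0571).

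With voom, none of these bone genes passed over 20534 genes. Adjusted p was 0.155 for Dmp1, 0.0641 for Ibsp, 0.254 for Sp7 and 0.192 for Runx2. Across all 12863 genes under the filter, 476 had no overlap and were higher (3.7%) and 406 lower (3.16%), and the smallest Benjamini-Hochberg value of the exact test was 0.417. Of 270 list members under the filter, 32 had no overlap and were higher, and 4 lower.

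Some osteoclast and macrophage genes under the filter passed voom, and others did not. Over all genes voom called 77 genes higher (0.375%) and 37 lower (0.18%). Dcstamp, needed for macrophages to fuse into osteoclasts and giant cells, gave 2, 4, 5 and 7 reads in controls and 161, 152, 181 and 86 in Kl/Kl (voom log2 change 4.91, adjusted p = 0.00102). Atp6v0d2, a proton pump subunit of osteoclasts and macrophages, gave 9, 8, 14 and 7 reads against 872, 1232, 2286 and 478 (voom log2 change 6.78, adjusted p = 0.00322). Itgax, the integrin chain CD11c, had a voom log2 change of 5.14 (adjusted p = 0.0104), and Ccl3, an inflammatory chemokine, 3.62 (adjusted p = 0.0271) on 1 to 31 reads. A gene entered voom with at least 10 reads in at least 4 of the 8 libraries. Dcstamp and Ccl3 reached 10 reads in Kl/Kl libraries only, so they had to differ to enter. Atp6v0d2 reached 10 reads in control replicate 3 alone among the controls. Ocstamp, which also serves fusion, went the other way, with 38, 13, 13 and 26 reads against 12, 9, 9 and 9 (exact permutation p = 0.0286), and did not pass voom (log2 change −1.05, adjusted p = 0.339). The inflammatory cytokines Tnf (1.91, voom adjusted p = 0.275) and Il1b (1.56, voom adjusted p = 0.324) and the chemokine Cxcl10 (0.17, voom adjusted p = 0.929) did not pass either. The tested osteoclast enzyme Acp5, by contrast, had a log2 change of −0.50 in the main test (adjusted p = 0.340).

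**Figure D2:**
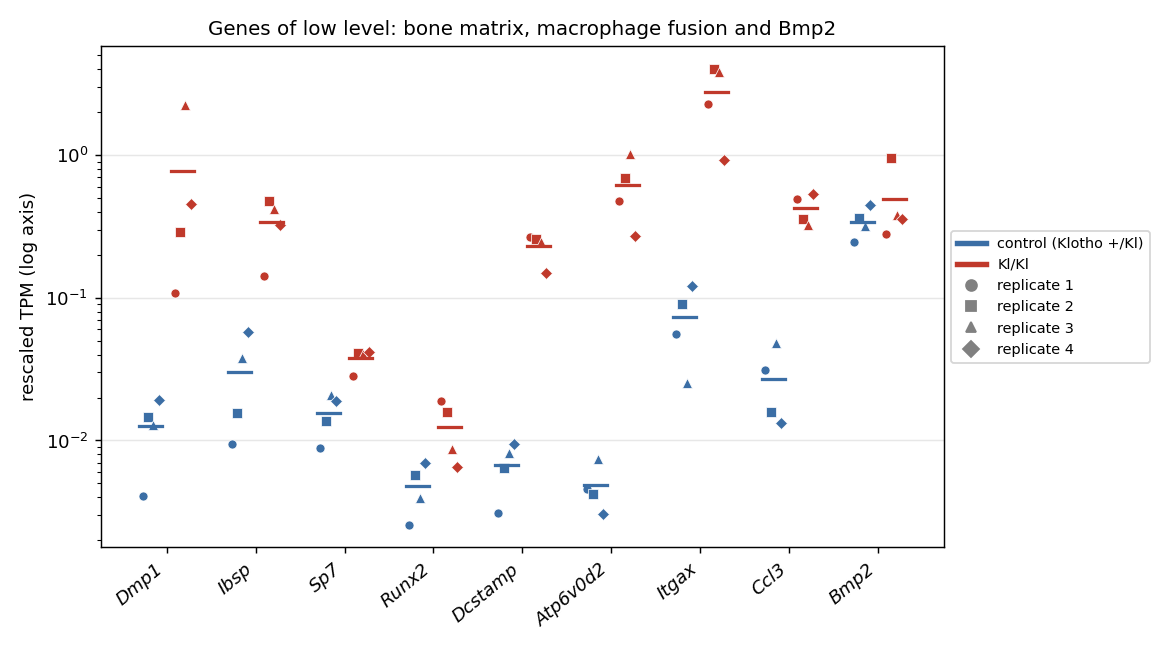
Rescaled TPM (log axis) of 9 genes of low level, all under the filter, in the 4 control (blue) and 4 Kl/Kl aortas (red) of ∆UCS males; symbols mark the replicate and bars the group mean. Red lies above blue without overlap for Dmp1, Ibsp, Sp7, Dcstamp, Atp6v0d2, Itgax and Ccl3, and the groups overlap for Runx2 and Bmp2.

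Tested genes of BMP signalling did not pass in either direction. Among 6 tested ligands, receptors and antagonists 0 were called, with a median log2 change of −0.07, and among 7 target genes and Smads 0 were called, with a median of 0.21. Id1, a direct target of BMP receptors, was at 50.1, 86.3, 51.3 and 40.7 in controls and at 46.8, 80.4, 58.8 and 78.9 in Kl/Kl (log2 change 0.23, SE 0.28, adjusted p = 0.722). Bmp4, the ligand that passed the filter, had −0.20 (SE 0.16, adjusted p = 0.571). Both genes overlapped between the groups. Most genes of the first list, 16 of 22, lay under the filter. Of these Bmp6, a BMP ligand, was lower without overlap, at 0.156 ± 0.0125 rescaled TPM in controls and 0.105 ± 0.00938 in Kl/Kl (SD, n = 4 each, exact permutation p = 0.0286), and did not pass voom (log2 change −0.66, adjusted p = 0.167).

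Other genes that rose bind metals or serve secretion. Mt2, a metallothionein that binds zinc and responds to metals and glucocorticoids, was at 29.1, 35.3, 23.4 and 41.3 in controls and at 97.3, 166, 205 and 80.7 in Kl/Kl (log2 change 1.98, SE 0.33, adjusted p = 0.0281). Its neighbour and close copy Mt1 had 1.32 (adjusted p = 0.0505). The core of the metal response element, TGCGCNC, stands in the Mt2 promoter, in capitals in this RefSeq window (GRCm38.p6).
Mt2, chr8:94172460-94172526, plus strand: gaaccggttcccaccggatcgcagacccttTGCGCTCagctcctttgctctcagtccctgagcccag
That core is common, with a match in 14% of all 250-base windows, in 24% of those of tested genes, in 2 of 44 called higher (4.55%) and in 15 of 67 called lower (22.4%). The light chain of the iron store, Ftl1, also rose, from 171, 207, 152 and 189 to 364, 328, 342 and 483 (log2 change 1.07, SE 0.19, adjusted p = 0.0387).

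Reg3g, a secreted lectin of epithelia, was at 0.350, 7.03, 10.1 and 9.81 in controls and at 38.0, 58.3, 82.1 and 69.5 in Kl/Kl (log2 change 3.34, SE 0.65, adjusted p = 0.0435). The summed level of airway epithelial genes was 11.8 in control replicate 1, 661 to 946 in the other controls and 845 to 2630 in Kl/Kl, so the groups overlapped. Scgb3a1, a secretoglobin of airway cells, had 3.46 in control replicate 1, 76.2 to 89.4 in the other controls and 303 to 703 in Kl/Kl (adjusted p = 0.0787). Reg3g was the 1 of 11 tested airway genes called (9.09%), beside 0.875% of all tested genes. All 11 had a positive change, with a median log2 change of 2.06. The part of airway RNA in its rise was not tested.

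**Figure D3:**
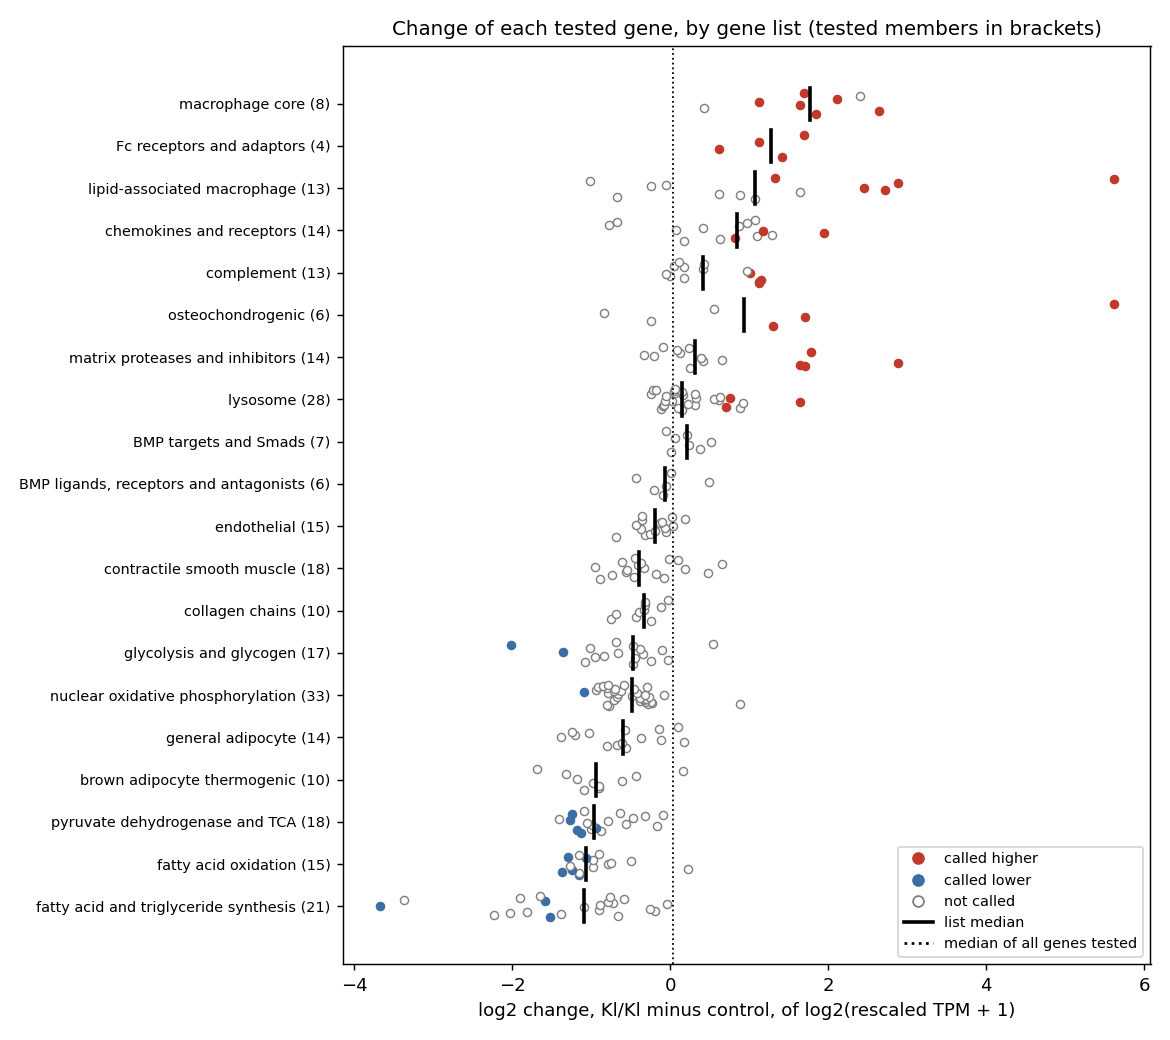
Change of each tested gene (log2, Kl/Kl minus control) by gene list, with tested members in brackets; red and blue points were called higher and lower, open points were not called, black bars are list medians and the dotted line is the median of all tested genes. Macrophage, Fc receptor and chemokine lists lie to the right and the metabolic lists to the left, with BMP lists near the dotted line.

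Fasn was the coding gene with the lowest log2 change among those called. Of 21 tested genes of fatty acid and triglyceride synthesis, 3 were called lower and 0 higher, beside 1.35% of all tested genes, and the median log2 change was −1.09, with a negative sign in 21 of 21. Fasn, fatty acid synthase, was at 312, 196, 386 and 215 in controls and at 12.4, 20.0, 8.36 and 72.2 in Kl/Kl, 9.81-fold lower in the mean (log2 change −3.68, SE 0.59, adjusted p = 0.0278). Acaca, acetyl-CoA carboxylase, which makes the building block for Fasn, was at 3.65, 2.30, 4.97 and 1.74 against 0.232, 0.316, 0.242 and 0.822 (log2 change −1.52, SE 0.25, adjusted p = 0.0281). In both genes Kl/Kl replicate 4 was the highest of its group and still below every control. Pnpla3, a lipid droplet hydrolase, fell by 1.58 on the log2 scale. Acaca and Pnpla3 reached 1 TPM in control libraries only, so of the 3 called genes Fasn alone did not pass the filter through 1 group. Scd1, stearoyl-CoA desaturase, was at 472 ± 396 in controls and 51.2 ± 53.7 in Kl/Kl (SD, n = 4 each) and did not pass (log2 change −3.37, SE 0.75, adjusted p = 0.0567).

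Genes by which mitochondria burn fuel fell in part. Of 15 tested genes of fatty acid oxidation, 5 were called lower (Acadm, Acadvl, Hadha, Hadh, Acaa2) and 0 higher, beside 1.35% of all tested genes called lower, with a median of −1.07. Acadm, the dehydrogenase for medium-chain fatty acids, was at 97.5, 65.2, 71.4 and 69.2 in controls and at 18.3, 32.0, 35.5 and 30.4 in Kl/Kl (log2 change −1.38, SE 0.24, adjusted p = 0.0357). Acads, the short-chain enzyme, which was not on the list, fell by 1.31 (adjusted p = 0.0262). Of 18 genes of pyruvate dehydrogenase and the citric acid cycle, 5 were called lower (among them Pdha1, Dlat, Sdha and Fh1), again beside 1.35%, the median was −0.97 and 18 of 18 were negative. Pdha1, the catalytic subunit that lets pyruvate into the cycle, was at 104, 89.1, 105 and 67.6 against 25.8, 38.0, 38.9 and 48.1 (log2 change −1.27, SE 0.24, adjusted p = 0.0402). Both genes were lower in each Kl/Kl library than in any control.

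Both counts change with single libraries. Without Kl/Kl replicate 4 there were 8 of 15 and 11 of 18 lower. Without Kl/Kl replicate 1, Kl/Kl replicate 3 or control replicates 1, 2 or 3 there were 0 in both lists, and without control replicate 4 there were 0 and 2. Without Kl/Kl replicate 2 there were 3 and 4, and voom and the deposited scaling called 0 in both.

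Of 33 nuclear genes of the respiratory chain, 1 was called lower, Ndufs1 of complex I (log2 change −1.09, SE 0.20, adjusted p = 0.0379), with a median of −0.49 and 32 of 33 negative. That is 3.03% of the list, near the 1.35% of all tested genes. The 13 mitochondrially encoded genes had a median of −0.60, and 0 were called. Of 17 glycolysis and glycogen genes, Pygl, the glycogen phosphorylase of liver and other tissues, and Pfkl, a phosphofructokinase, fell. Pygl was at 11.7, 10.5, 17.1 and 6.49 in controls and at 1.37, 1.44, 1.18 and 4.95 in Kl/Kl (log2 change −2.01, SE 0.37, adjusted p = 0.0400). Kl/Kl replicate 4 again lay nearest to the controls.

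Among signalling and transport genes, Adrb3, the adrenergic receptor by which fat cells receive sympathetic input, was at 8.19, 4.52, 6.01 and 4.31 against 0.366, 2.63, 0.474 and 1.32 (log2 change −1.70, SE 0.32, adjusted p = 0.0435). P2rx5, an ATP-gated channel found on brown fat cells, was at 5.07, 4.87, 4.90 and 3.42 against 1.24, 1.06, 1.04 and 1.31 (log2 change −1.35, SE 0.13, adjusted p = 0.00416). Nat8l, which makes N-acetylaspartate and is active in brown fat, fell by 1.54 (SE 0.23, adjusted p = 0.0253), and Gpd2, the mitochondrial glycerol phosphate dehydrogenase, by 1.55 (SE 0.22, adjusted p = 0.0253). S100b, a calcium-binding protein of glia and fat cells, fell by 1.40 (adjusted p = 0.0379). Its list of 6 tested Schwann cell genes had a median of −0.10.

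**Figure D4:**
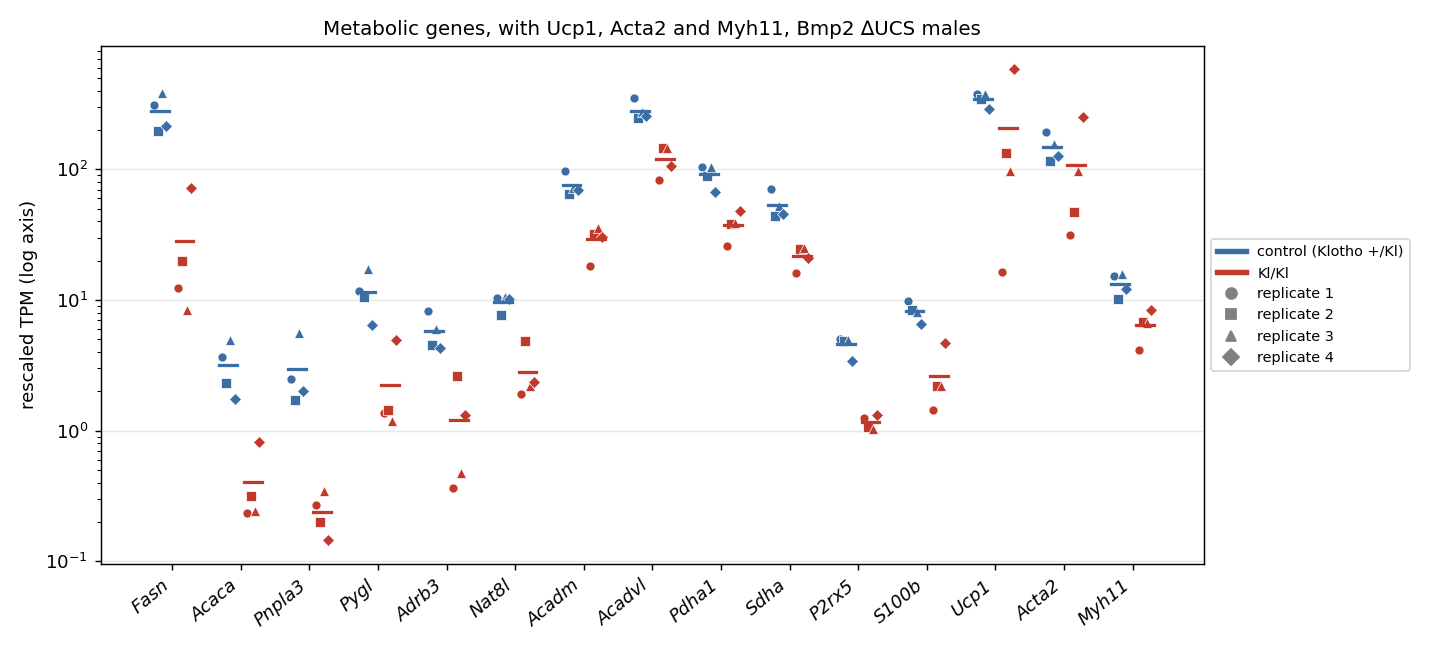
Rescaled TPM (log axis) of 12 genes called lower and of Ucp1, Acta2 and Myh11, which were not called, in the 4 control (blue) and 4 Kl/Kl aortas (red) of ∆UCS males; symbols mark the replicate and bars the group mean. Kl/Kl replicate 4 (diamond) lies above the controls for Ucp1 and Acta2 and below them for the called genes.

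Markers of fat cells did not pass the test. The summed level of 14 brown fat genes was 923 to 1266 in controls, 281 to 479 in Kl/Kl replicates 1 to 3 and 1493 in Kl/Kl replicate 4. Ucp1, the uncoupling protein that defines brown fat, was at 378, 344, 376 and 288 in controls and at 16.4, 134, 96.8 and 581 in Kl/Kl (log2 change −1.68, SE 0.88, adjusted p = 0.356). Of 10 tested brown fat genes 0 were called (median −0.94), and of 14 general fat cell genes 0 (median −0.59). Kl/Kl replicate 4, with the highest brown fat sum of all, had 386 for the summed genes of fatty acid oxidation, below the 699 to 972 of the controls. The part of fat cell content in the falls was not tested.

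Genes of the vessel wall itself did not pass the test. Of 18 contractile smooth muscle genes 0 were called (median −0.39), of 15 endothelial genes 0 (median −0.19), and of 10 collagen chains 0, although all 10 were negative (median −0.33). Acta2, smooth muscle actin, was at 193, 115, 157 and 127 in controls and at 31.5, 47.4, 96.4 and 253 in Kl/Kl (log2 change −0.89, SE 0.58, adjusted p = 0.473). Kl/Kl replicates 1 to 3 were below every control and Kl/Kl replicate 4 above them. Myh11, smooth muscle myosin, was at 15.1, 10.2, 15.7 and 12.2 against 4.12, 6.74, 6.67 and 8.40, without overlap (log2 change −0.95, SE 0.22, adjusted p = 0.0644). Lymphocyte markers were uneven too, with T and NK cell sums of 3.92 to 44.0 in controls, 523 in Kl/Kl replicate 1 and 4.62 to 28.3 in the other Kl/Kl libraries. Their part in the results was not tested.

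**Figure D5:**
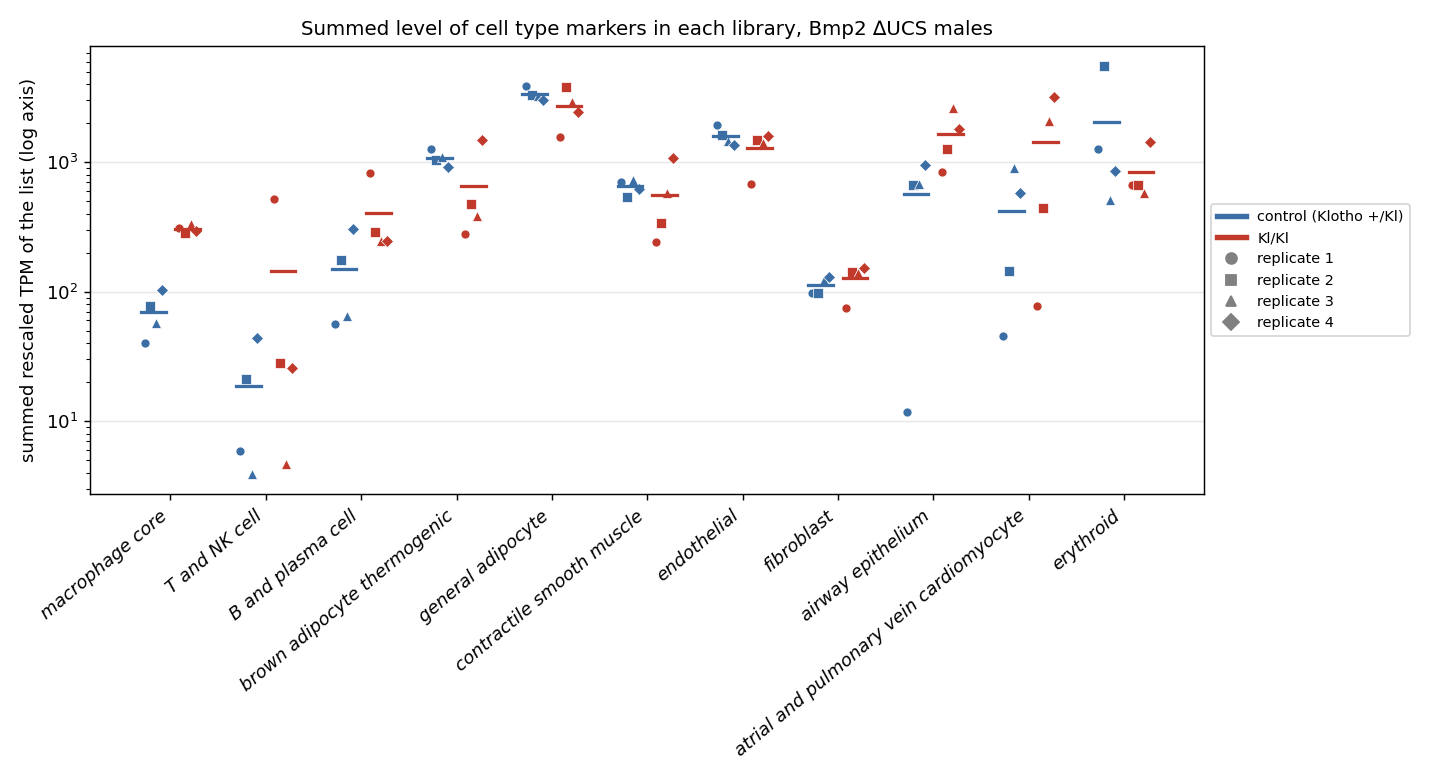
Summed rescaled TPM (log axis) of the marker genes of each cell type, in the 4 control (blue) and 4 Kl/Kl aortas (red) of ∆UCS males; symbols mark the replicate. The macrophage sums of 282 to 331 in Kl/Kl, most of them Lyz2, lie above the 40.4 to 103 of controls. Most other sums overlap, and Kl/Kl replicates 1 and 4 hold several extremes.

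The same contrast in mice with intact Bmp2 compares other libraries. It was taken from 1 fit of 22 libraries that also holds these 8, so the errors and calls share 1 estimate of the spread and are not independent. Replicate 1 of the Kl/Kl males and replicate 2 of the Kl/Kl females with intact Bmp2 went against their labelled sex and were left out. Those Kl/Kl groups were therefore smaller than the groups of 4 in ∆UCS males. Of the 68 genes higher in ∆UCS males, 68 had a positive change in males with intact Bmp2 and 42 were called higher there (1.16% of these tested genes), and in females 65 and 48 (1.85%). Of the 105 lower genes, 104 were negative in such males and 4 called lower (0.219%), and in females 105 and 33 (1.54%). Over all tested genes, 55.8% of those positive in ∆UCS males were positive in the other males and 68.0% of those negative were negative there, and in females the shares were 66.4% and 76.4%. Spp1 had log2 changes of 6.52 (SE 0.46) in males and 6.46 in females with intact Bmp2, and Cd68 had 3.19 (SE 0.25) and 3.59. Pygl had −0.37 (SE 0.49) and −1.43, and neither passed.

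The difference between the Klotho effects of ∆UCS males and of males with intact Bmp2 was itself tested, and 0 of 9245 genes were called (limma; 543 at an unadjusted p under 0.05). On voom 0 of 22233 were called, with 1899 at an unadjusted p under 0.05. Reg3g had a change of 0.71 (SE 0.62) in males with intact Bmp2, and the difference of 2.62 (SE 0.85) did not pass (adjusted p = 0.767). For P2rx5 the difference was −0.75 (SE 0.28, adjusted p = 0.767), and for Spp1 −0.90 (SE 0.63, adjusted p = 0.776). A p that misses the threshold does not show that the Klotho effects are alike.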

How the data were processed

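RNA was measured in 24 aortas, 8 of them used for the main comparison. Per the submitters' processing notes, the authors made the deposited TPM table of 32561 genes in Partek on mm39. No source used here names the aligner, the annotation release, the treatment of multi-mapping reads or the use of strand, so near-identical copies, overlapping genes and antisense genes are uncertain. Each deposited column sums to the same total, lengths span introns, and a constant of 0.0001 read had been added. Reads were estimated from that constant, and 73.2% of values between 0.5 and 20 reads came out within 0.05 of a whole number. In the 8 libraries 1 TPM of a 2 kb gene stood for 59.2 to 113 reads, and of a 20 kb gene for 592 to 1130.

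TPM was rescaled by median-of-ratios size factors from 4381 nuclear genes, and log2(rescaled TPM + 1) was tested with limma 3.58.1 in R 4.3.3 (lmFit, eBayes with a trend, Benjamini-Hochberg threshold 0.05, two-sided). The main fit held the 8 libraries without covariates, and 22 libraries with library set as a term gave the comparison between Bmp2 genotypes, since 2 of 24 went against their labelled sex. Genes under the filter were tested by an exact permutation test of log2(rescaled TPM + 0.001) over 70 splits, where 10 reads or more were found in 4 or more libraries. Pseudogenes were matched with blastn 2.17.0 to GENCODE transcripts. The procedure was tested on simulated data. Named genes were Kl, Bmp2, the 15 higher and 15 lower genes of largest change without overlap and with a mean of at least 2 rescaled TPM, and members of the lists. The members and lists were chosen with earlier results of these data known. Other settings were 2 other scalings, other pseudocounts and filters, voom, other sets of libraries, age, a replicate block, quality weights and leaving out each replicate. All sample columns were used.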

Additional observations from a re-analysis of the deposited data

Results flagged for a closer look

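In 20 of 140 groups of 4 libraries examined, over 70 genes and marker sums, 1 library lay far from the other 3. Chance alone marks about 1 group in 20. Kl/Kl replicate 4 was the high one for several metabolic genes that had fallen. It had 4.95 rescaled TPM of Pygl (1.18 to 1.44 in the other 3), 9.80 of Dhrs7 (3.83 to 4.04), 0.822 of Acaca (0.232 to 0.316) and 1.62 of Acot11 (0.366 to 0.525). Its summed brown fat level was 1493, against 281 to 479. Kl/Kl replicate 2 had 4.82 of Nat8l (1.91 to 2.36), 11.6 of Acads (6.76 to 7.36) and 0.954 of Bmp2 (0.281 to 0.381).

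Kl/Kl replicate 1 stood apart in lymphocyte markers, with a T and NK cell sum of 523 (4.62 to 28.3 in the other 3) and a B and plasma cell sum of 830 (245 to 291). Its Sp7 was the lowest at 0.0283 (0.0404 to 0.0415). Kl/Kl replicate 3 had the most Dmp1, 2.26 (0.108 to 0.457), and the most Fgf23, 0.562 (0.0122 to 0.106), the hormone of bone that acts through Klotho.

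Among the controls, replicate 1 had 3.46 of Scgb3a1 (76.2 to 89.4 in the other 3). Control replicate 2 had 4.96 of Cd14 (6.53 to 6.85), 7.71 of Nat8l (10.2 to 10.6) and 0.0142 of Fgf23, which was without reads in the other controls. Control replicate 4 had 3.42 of P2rx5 (4.87 to 5.07), 0.568 of Bglap2, 0.00151 of Mepe, a bone matrix phosphoprotein, and almost none of the last 2 was found in the other controls.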

How the results depend on the processing

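The 68 higher and 105 lower genes became 47 and 10 on deposited TPM, 64 and 160 with the 75th percentile, 62 and 94 with a pseudocount of 0.1, 26 and 4 without a filter, 117 and 137 with a TPM of at least 5, and 60 and 34 with a minimum and pseudocount of 0.1. They were 77 and 37 with voom, 82 and 118 in the 12 male libraries of set 1, 89 and 77 in 22 libraries, 0 and 1 in all 24 libraries (the gene was Gm45315), 20 and 13 with age as covariate, and 284 and 305 with quality weights. Leaving out 1 replicate gave 2 to 319 higher and 2 to 432 lower. Without a Kl/Kl library, genes below 1 TPM in all controls, such as Spp1, Mmp12, Trem2 and Gpnmb, could not be tested. Macrophage markers called ranged from 1 of 7 without Kl/Kl replicate 1 to 7 of 7 without Kl/Kl replicate 4, with 2 or 3 of 8 without control replicates 1, 2 or 3. No sign reversed among called genes in these settings. Without overlap between the groups, this was fixed in advance for left-out replicates, other pseudocounts, other filters and quality weights. It was also fixed with more libraries and with the replicate block, which leave the change of each gene as it was. Other scalings, voom and age as covariate could have reversed a sign. Of 1214 values for 62 named genes, 584 stayed past the threshold and 630 did not.

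Same-numbered libraries had correlations of −0.11, −0.22, 0.29 and −0.49 across genes, and the other pairs −0.46 to 0.29. Deviations were taken from the mean of each group of 4, so these few values cannot exclude that animals were paired. A fit with the replicate number as a block called 2 higher (Spp1, Mmp12) and 1 lower (Gm45315), and 0 for the difference between Bmp2 genotypes. That difference had 0 genes in every setting run but one, leaving out replicate 1 of the male controls with intact Bmp2, which called 1 (Gm3555). A range of 0 to 1 held over its left-out replicates. Control reads were 2 to 35 for Dmp1 and Ibsp and 1 to 14 for Ccl3, Dcstamp and Atp6v0d2, so counting error is wide for all of them.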

Other observations

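The lowest adjusted p among all tested genes belonged to a processed copy of another gene, and it was chosen here after its values were seen. Gm45315 (ENSMUSG00000109925, mm39 chr7:12531456-12531788) is 333 bases long and differs from the transcript of Hmgb1, a chromatin protein, at 5 positions (98.5% identity). All 5 fall in its last 90 bases, shown here from GENCODE transcripts with the differing bases in capitals because within this match only these differ.
Gm45315, positions 244 to 333: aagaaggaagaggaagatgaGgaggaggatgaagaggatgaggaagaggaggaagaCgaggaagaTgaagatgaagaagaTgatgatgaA
Hmgb1, the same stretch: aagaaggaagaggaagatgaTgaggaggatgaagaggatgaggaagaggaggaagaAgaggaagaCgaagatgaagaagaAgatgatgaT
Counted from the 5′ end of Gm45315, with its base first, the differences are G264T, C300A, T309C, T324A and A333T.

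Gm45315 had 192 to 512 reads in the 4 ∆UCS controls (20.6 ± 8.08 rescaled TPM, SD) and 0 reads in each ∆UCS Kl/Kl library. It passed the filter through the controls alone, so it had to differ to enter the test. With 3 reads per library as the floor, it was at least 93.9-fold lower in Kl/Kl. Across the series it followed the Klotho genotype of the labels, with 40.7 rescaled TPM in the +/+ library, 10.8 to 30.9 in 11 +/Kl libraries and at most 1.03 in 10 Kl/Kl libraries. The 2 libraries that went against their labelled sex, both labelled Kl/Kl, had 8.47 and 11.2. Hmgb1 lies on chromosome 5, 1.89 Mb from Kl, while Gm45315 is placed on chromosome 7. Of 39 tested genes within 10 Mb of Kl, 0 were called.

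Another copy closest to Hmgb1, Gm13577, was called higher (log2 change 1.44). In all, 31 of the 173 called genes were predicted genes or pseudogenes, and 24 of them matched a coding gene over at least 200 bases at 90% identity or more. The coding gene was tested for 20 of these, and all 20 had the same sign, with 6 called. Gm5182, a copy of Acaca, fell by 3.56 on the log2 scale, Ftl1-ps1 rose by 1.07 like Ftl1, and Gm5131, a copy of Acadm, fell by 1.66. Whether reads of the parent genes were counted at these copies was not tested.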
